A study of Mus musculus with 24 samples.

Results

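The mitochondrially encoded genes were followed in mammary gland RNA of ageing transgenic mice. They were taken as every row of the expression matrix whose symbol begins with mt-, which gave 37 genes of the 55487 in the matrix: 13 mRNAs, 2 rRNAs and 22 tRNAs. All 37 matched a mitochondrial gene of the RefSeq annotation of GRCm38.p6. Bulk RNA of whole glands was sequenced from 24 libraries in 8 groups of 3, which the labels call biological replicates. Every mouse carried an rtTA activator under the MMTV promoter, which is active mainly in mammary epithelium, together with a tet-operator transgene that had been induced. One line carried the CYP19A1 transgene, for the enzyme aromatase that makes oestrogen (genotype MMTV-rtTA/tet-op-CYP19A1), and the other the Esr1 transgene, for oestrogen receptor alpha (genotype MMTV-rtTA/tet-op-Esr1). In each line, 3 mice were 20 months old with a subcutaneous tamoxifen pellet (25 mg over 60 days) and 3 were 20 months old with a letrozole pellet (2.5 mg over 60 days). A further 3 of each line were 20 months old and 3 were 18 months old without either drug. The pellets were implanted at 18 months and carried for 2 months. Induction had lasted 8 months in all 20-month-old mice and 6 months in those aged 18 months, so age and length of induction cannot be told apart. The drug-free groups are called untreated because the labels give them no treatment. Their sample names carry the tags PLA (20 months) and Doxy (18 months), which the labels do not explain. Mice without a transgene were not analysed here. Tamoxifen is a modulator of oestrogen receptors and letrozole an inhibitor of aromatase.

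Mitochondrial DNA is a small circle present in many copies per cell. It encodes core subunits of respiratory complexes I (the mt-Nd genes), III (mt-Cytb) and IV (the mt-Co genes) and of ATP synthase (mt-Atp6 and mt-Atp8), and the rRNAs and tRNAs of the mitochondrial ribosome. Both strands are transcribed as long precursors, and most mRNAs and rRNAs are released where the tRNAs between them are cut out. The other subunits of the respiratory chain are encoded in the nucleus, and tissues with high respiration such as muscle and brown fat are rich in both sets of transcripts.

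Values are in TPM, transcript abundance scaled by gene length and to the same total in every library, so that a rise of any abundant RNA lowers every other value. The files hold no read counts, and the depth behind each value is unknown. The libraries had been depleted of rRNA and random primed, and the labels do not say whether mitochondrial rRNAs were among the targets. Some libraries stood apart. Cytosolic rRNA models took 17.4% of all TPM in replicate 2 of the untreated 20-month Esr1 mice, 2.02% in replicate 3 of that group, 1.92% in replicate 2 of the tamoxifen-treated Esr1 mice and 0.0145% to 0.427% in the others. The abundant RNAs Rn7s1 and Rn7s2 together took 19.9% to 38.8% of TPM, with a median of 30.6%. Their share was lowest in replicate 2 of the untreated 20-month Esr1 mice and highest in replicate 1 of the 18-month Esr1 mice. Its part in the results below was not tested. The summed level of 12 skeletal muscle genes was 58.3 TPM in replicate 3 of the 18-month CYP19A1 mice and 216 TPM in replicate 1 of the 18-month Esr1 mice, against 4547 to 34702 TPM elsewhere. Markers of gland epithelium (7 keratin, adhesion and contractile genes) were detected in every library, at a summed 112 to 801 TPM.

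Mitochondrial transcripts were among the most abundant RNAs of the gland and took 9.82% to 27.9% of all TPM, with a median of 21.5%. Most of that was rRNA. The large-subunit rRNA mt-Rnr2 (positions 1094 to 2675 of the mitochondrial genome) had 71009 to 202450 TPM over the 24 libraries, with a median of 154964 TPM. The small-subunit rRNA mt-Rnr1 (positions 70 to 1024) had 14865 to 50014 TPM, with a median of 33740.2 TPM. The 13 mRNAs together took 1.24% to 3.48% of all TPM, and the rRNAs 8.59% to 24.8%. Both the lowest mRNA share and the lowest rRNA share belonged to replicate 2 of the untreated 20-month Esr1 mice, the library with 17.4% cytosolic rRNA. The share of TPM in rRNAs was 5.93 to 9.73 times that in mRNAs, and the highest ratio was in the muscle-poor replicate 1 of the 18-month Esr1 mice.

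Among the mRNAs the median level spanned about 2 orders of magnitude. The complex IV catalytic subunit mt-Co1 (positions 5328 to 6872) was the highest, with 3969 to 11732 TPM and a median of 8666 TPM. The complex I subunit mt-Nd1 (median 3246 TPM), the complex III subunit mt-Cytb (2931 TPM), the ATP synthase subunit mt-Atp8 (2652 TPM) and the complex I subunit mt-Nd3 (2282 TPM) came next. ATP synthase subunit mt-Atp6 (1605 TPM) and complex I subunits mt-Nd4 (1497 TPM) and mt-Nd2 (1401 TPM) were in the middle. Complex I subunits mt-Nd5 (605 TPM), mt-Nd4l (496 TPM) and mt-Nd6 (409.5 TPM, from 188.0 to 536 TPM) and complex IV subunit mt-Co3 (492 TPM) were low. The lowest was the complex IV subunit mt-Co2 (positions 7013 to 7696), with 11.6 to 192 TPM and a median of 82.2 TPM. In this order mt-Nd4l and mt-Co3 had nearly the same median, and mt-Nd4 and mt-Nd2 differed by less than their spread between libraries. The 3 complex IV subunits, which occur in equal numbers in the enzyme, lay at both ends of the range of listed levels. How reads shared with nuclear copies bear on these levels was not tested.

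**Figure D1:**
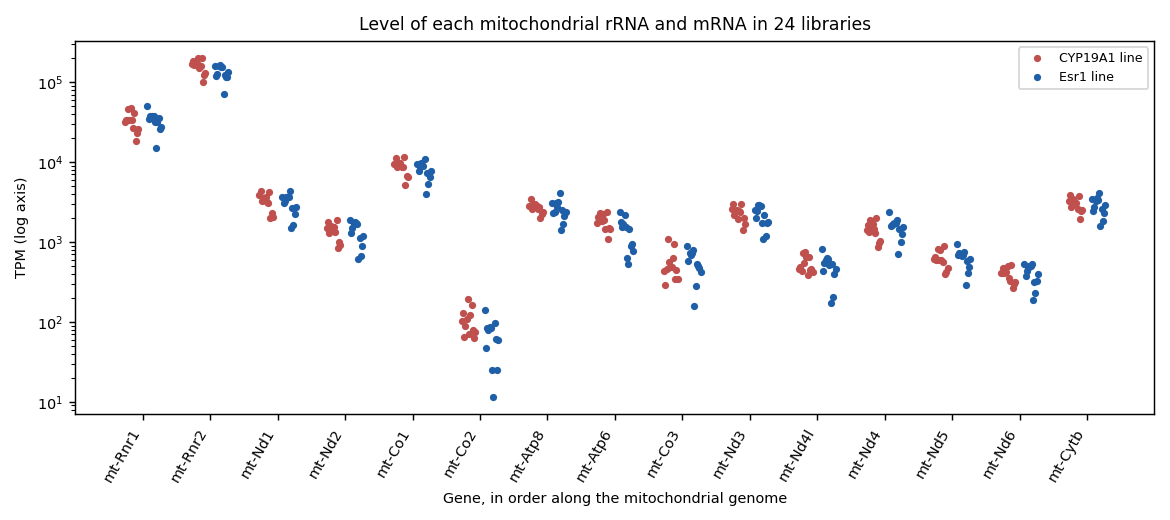
Level of each mitochondrial rRNA and mRNA (TPM, log axis) in the 24 libraries, in genome order, with CYP19A1 libraries left of Esr1 libraries for each gene. mt-Rnr2 and mt-Rnr1 lie above every mRNA, mt-Co1 is the highest mRNA and mt-Co2 the lowest, and for each gene the points of the 2 lines overlap.

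Copies of mitochondrial DNA in the nuclear genome can share reads with the mitochondrial genes, and how such reads were divided here was not tested. Several nuclear pseudogene models had levels like those of mRNAs, namely Gm28437 (median 8635 TPM), Gm28661 (7270.5 TPM), Gm29216 (4723 TPM) and Gm10925 (3662 TPM). A list of 8 such models, these included, summed to 12704 to 32497 TPM a library, with a median of 24240 TPM. The listed levels of the mitochondrial mRNAs do not include these values. Only Gm10925 is tied to a mitochondrial gene by the annotation used here, where mt-Atp6 is among its synonyms. It lies on chromosome 1 (24613971 to 24614651, GRCm38.p6) and is 681 bases long, as is mt-Atp6 (positions 7927 to 8607 of the mitochondrial genome). The model Gm10222, at 24612404 to 24612700 on the same chromosome, has the 297 bases of mt-Nd4l (positions 9877 to 10173). The gap between the models, 1270 bases, differs by 1 base from the 1269 bases between mt-Atp6 and mt-Nd4l. Gm10222 had 0 to 275 TPM. Over the 24 libraries, log2(TPM + 1) of mt-Co1 had a Pearson r of 0.97 with Gm28437, 0.99 with Gm28661, 0.94 with Gm29216 and 0.82 with Gm10925, whereas mt-Atp6 and Gm10925 had an r of 0.16. These coefficients are descriptions, since all values of a library share its scaling. On the mitochondrial genome mt-Co3 (positions 8607 to 9390) and mt-Nd3 (positions 9459 to 9806) lie between mt-Atp6 and mt-Nd4l. No model is tied to mt-Co3 or mt-Nd3 here, and sharing of their reads was not tested. Levels of mt-Atp6, mt-Nd4l, mt-Co3 and mt-Nd3 are treated as uncertain. So is that of mt-Co2, the lowest mRNA, since sharing of its reads was not tested either. Parents of the other models are not named by the annotation used here.

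Mature tRNAs are 59 to 75 bases long in the annotation, shorter than most fragments of such a library. In every library 21 of the 22 mitochondrial tRNAs were listed at 0 TPM. The exception was the leucine tRNA mt-Tl1, which lies directly between mt-Rnr2 and mt-Nd1 (positions 2676 to 2750). It was listed above 0 in 5 libraries, at 34.2 TPM in 1 tamoxifen-treated Esr1 mouse, 28.4 and 28.0 TPM in 2 letrozole-treated Esr1 mice, 28.6 TPM in 1 letrozole-treated CYP19A1 mouse and 20.8 TPM in 1 untreated 20-month Esr1 mouse. All libraries of the other groups had 0. mt-Tl1 therefore passed the filter for testing (at least 1 TPM in at least 3 libraries) while the other 21 tRNAs did not, which left 16 of the 37 genes to be tested.

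Levels of most mRNAs and rRNAs moved together from library to library. Over the 24 libraries, the 105 pairs of the 15 rRNAs and mRNAs had a median Pearson r of 0.78 on the log2(TPM + 1) scale, from 0.067 to 0.98. The closest pair was mt-Nd4 and mt-Nd5, which are separated on the genome by 3 tRNAs. mt-Co3 had the lowest coefficient with many of the others, for example 0.37 with mt-Rnr2, 0.22 with mt-Cytb and 0.067 with mt-Atp8. These values have no test, because the genes share the scaling, the composition and the tissue makeup of each library.

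The makeup of the mitochondrial mRNA pool was steady for the abundant members and loose for a few. mt-Co1 made up 29.2% to 34.9% of the summed mRNA TPM, with a coefficient of variation of 4.36% over the 24 libraries. mt-Nd1 made up 10.3% to 14.0% and mt-Cytb 10.1% to 12.9%. The coefficient of variation was 22.7% for mt-Atp6, 30.7% for mt-Co3 and 40.5% for mt-Co2, whose shares ranged from 2.00% to 7.60%, from 0.498% to 3.48% and from 0.0799% to 0.652%. The group means of mt-Atp6 lay between 6.45% and 7.17% of mitochondrial mRNA in the CYP19A1 line. In the Esr1 line they were 6.80% with tamoxifen, 5.97% with letrozole, 4.20% at 20 months untreated and 4.63% at 18 months.

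By group, the rRNAs took 20.5% ± 0.966 of TPM in tamoxifen-treated CYP19A1 mice and 17.6% ± 2.85 in tamoxifen-treated Esr1 mice (SD, n = 3 for these and each following group). With letrozole the shares were 22.8% ± 1.96 in the CYP19A1 line and 19.7% ± 0.405 in the Esr1 line. Untreated 20-month mice had 20.5% ± 3.40 in the CYP19A1 line and 14.2% ± 5.12 in the Esr1 line, and 18-month mice had 14.1% ± 1.81 and 15.2% ± 1.10 in the same order. Letrozole-treated CYP19A1 mice were thus the highest, the untreated Esr1 groups and the 18-month CYP19A1 mice the lowest, and groups next to each other in rank did not differ beyond their spread. The mRNAs took 2.93% ± 0.379 with tamoxifen, 2.95% ± 0.157 with letrozole, 2.91% ± 0.499 at 20 months untreated and 1.92% ± 0.210 at 18 months in the CYP19A1 line. In the Esr1 line they took 2.76% ± 0.393, 3.00% ± 0.036, 2.23% ± 0.956 and 1.94% ± 0.379 in the same order of groups. The 18-month-old mice of both lines thus had the lowest means for mRNA.

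**Figure D2:**
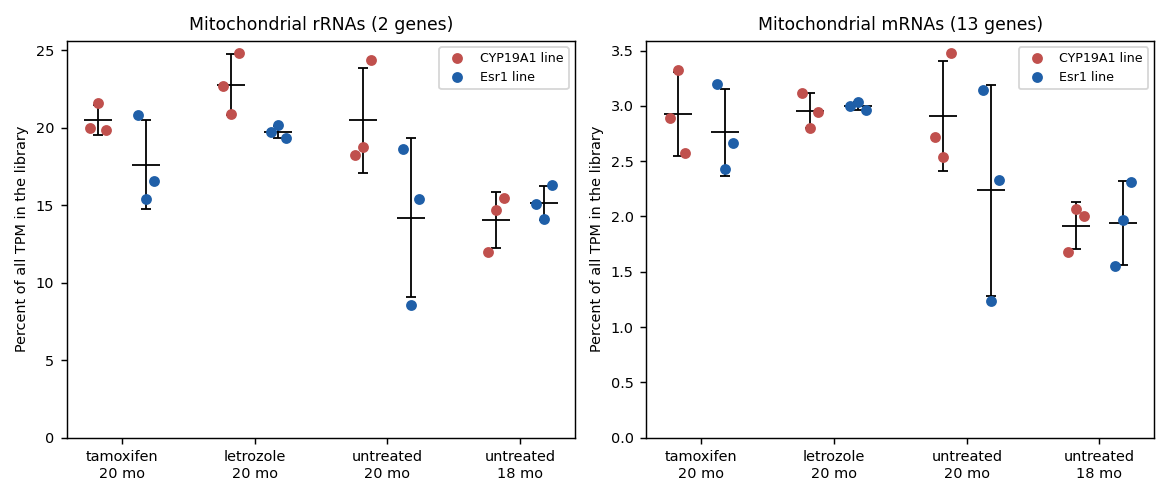
Share of all TPM taken by the mitochondrial rRNAs (left) and the 13 mitochondrial mRNAs (right), as a percentage, by treatment and age, with 1 point for each of the 24 libraries and bars for the group mean ± SD. The 3 untreated 20-month Esr1 libraries spread from 8.59% to 18.6% for rRNA and from 1.24% to 3.14% for mRNA, wider than any other group.

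The series asks how the transcriptome differs between the CYP19A1 and Esr1 lines in old age, and how each drug acts in each line. All 24 libraries were fitted together with limma on log2(TPM + 1), over the 19325 genes that passed the filter, and a gene was called at a Benjamini-Hochberg adjusted p under 0.05. Differences below are log2 values ± the standard error of that fit, with 3 libraries a group. The p-values measure the spread between these mice. All comparisons that called a member in this fit use the same 3 untreated 20-month Esr1 libraries, so their results are not separate pieces of evidence. These are CYP19A1 against Esr1, averaged over conditions and at 20 months untreated. The others are tamoxifen and letrozole, each against no drug in the Esr1 line. Where libraries are left out or a covariate is added, the share of all genes called in that fit is not given. Counts of members called in such fits are therefore not read as results about the members alone.

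Between the lines, averaged over the 4 conditions, 1 of the 16 tested members was called, mt-Atp6, which was higher in the CYP19A1 line. In that comparison 7.27% of all genes tested were called, 3.96% as higher. mt-Atp6 had 1082 to 2386 TPM in the 12 CYP19A1 libraries, with a median of 1833 TPM, against 534 to 2384 TPM and a median of 1491 TPM in the 12 Esr1 libraries. The line ranges overlapped, and only Esr1 libraries lay below 1082 TPM. The difference was 0.53 ± 0.15, or 1.44-fold (limma, Benjamini-Hochberg adjusted p = 0.028). The call was lost, with adjusted p up to 0.059, when any of 9 libraries was left out (limma, Benjamini-Hochberg). In the CYP19A1 line these were replicates 2 and 3 at 18 months, replicate 3 at 20 months untreated, replicate 1 with letrozole and replicate 2 with tamoxifen. In the Esr1 line they were replicate 3 at 18 months, replicates 1 and 3 with letrozole and replicate 3 with tamoxifen. Without the 2 muscle-poor libraries it was lost too, and without replicate 3 of the untreated 20-month Esr1 mice 2 members were called. Summed with its nuclear pseudogene Gm10925, mt-Atp6 had a difference of -0.00089 and was not called (limma, Benjamini-Hochberg adjusted p = 1.0). In the same comparison 3 of the 7 epithelial markers were called lower in the CYP19A1 line (Acta2, Krt14 and Krt5), and 2 of 6 white fat markers (Cfd and Retn) and 2 of 4 endothelial markers (Emcn and Kdr) higher, and their part in the result was not tested. The next smallest p-value was for mt-Co2, at 62.9 to 192 TPM (median 96.7) in CYP19A1 libraries and 11.6 to 140.2 TPM (median 70.2) in Esr1 libraries, a difference of 0.82 ± 0.28 (limma, Benjamini-Hochberg adjusted p = 0.094). The median difference was 0.10 over the 16 members and 0.0024 over all genes. mt-Rnr2 had 101553 to 202450 TPM (median 166519) in the CYP19A1 line and 71009 to 163579 TPM (median 131686) in the Esr1 line, and its difference of 0.28 ± 0.12 did not pass (limma, Benjamini-Hochberg adjusted p = 0.20).

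By condition, the only comparison of lines with a called member was the untreated mice at 20 months, where 5.27% of all genes were called, 2.12% as higher. mt-Atp6 had 1858, 1449 and 2386 TPM in the CYP19A1 mice, against 627, 534 and 1462 TPM in the Esr1 mice. Replicates 1 and 2 of the Esr1 mice were low, and replicate 3 lay just above the lowest CYP19A1 mouse, so the groups overlapped by 1 library. The difference was 1.24 ± 0.29, or 2.36-fold (limma, Benjamini-Hochberg adjusted p = 0.018). It was not called without replicate 1 or 3 of the CYP19A1 mice (adjusted p = 0.053 and 0.11) or replicate 2 of the Esr1 mice (0.080; limma, Benjamini-Hochberg). mt-Co3 came close, with a difference of 1.20 ± 0.35 (limma, Benjamini-Hochberg adjusted p = 0.053), and so did mt-Co2, at 1.82 ± 0.56 (0.067 by the same test). mt-Nd3 was the only member whose lines did not overlap, at 0.69 ± 0.23 (0.086 by the same test). The share of all genes that were separate in this comparison is not given here. The 16 members had a median difference of 0.47 and 15 were positive, against a median of 0.018 over all genes. Without replicate 1 of the untreated Esr1 mice 5 members were called, mt-Rnr2, mt-Co1, mt-Nd1, mt-Nd2 and mt-Atp6. Without replicate 3 there were 4, mt-Atp6, mt-Co2, mt-Co3 and mt-Nd3. All were higher in the CYP19A1 line. Set against the untreated Esr1 replicate 1 alone, without the 2 rRNA-rich mice of that group, the median difference of the members was -0.13, while mt-Atp6, mt-Co2 and mt-Co3 were called as higher. Beside these values stood the muscle list, whose summed level was 20511 to 34702 TPM in the CYP19A1 mice and 6297 to 20851 TPM in the Esr1 mice, and whose 12 genes all had positive differences, with none called. The 3 T cell markers were called lower in the CYP19A1 mice, with a median of -1.14, and the 7 epithelial markers all had negative differences, with a median of -0.84 and none called. With the muscle score, the mean log2(TPM + 1) of the 12 genes, as a covariate mt-Atp6 and mt-Co3 were called. That score was 1.76 and 3.84 in the 2 muscle-poor 18-month libraries and 7.95 to 11.1 in the others. The covariate leans on these 2 libraries, so it says little about muscle in the others. All 6 brown fat and all 6 white fat markers also had positive differences, with medians of 0.80 and 0.83 and none called. The part of the muscle, fat, T cell and epithelial shifts in the result was not tested. In bulk tissue, fewer cells of a type and less RNA per cell cannot be told apart.

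No member was called between the lines at 18 months (1.36% of all genes called), under tamoxifen (1.01%) or under letrozole (0.906%) by limma. At an unadjusted p under 0.05 there was 1 member of 16 at 18 months, mt-Atp6, 1 under tamoxifen, mt-Co3, and none under letrozole, against 8.38%, 7.86% and 7.71% of all genes in the same order, which is about the same share. At 18 months mt-Atp6 had 1082, 1492 and 1437 TPM in CYP19A1 mice and 879, 949.9 and 782 TPM in Esr1 mice, which did not overlap (8.86% of all genes were separate and higher). Its difference there was 0.61 ± 0.29 (limma, Benjamini-Hochberg adjusted p = 0.59). Under tamoxifen mt-Co3 had 439, 288 and 457 TPM in CYP19A1 mice and 888, 577 and 738 TPM in Esr1 mice. The lines did not overlap (7.41% of all genes were separate and lower), and the difference was -0.90 ± 0.35 (limma, Benjamini-Hochberg adjusted p = 0.45). Some members with a larger p did not overlap either. At 18 months these were mt-Rnr1 (lower) and mt-Co2 (higher). Under tamoxifen they were mt-Rnr1 and mt-Nd5 (lower) and mt-Rnr2 (higher). Under letrozole they were mt-Nd1, mt-Nd2 and mt-Nd3 (lower) and mt-Rnr2 and mt-Co2 (higher). The share of all genes that were separate is not given for letrozole, for lower at 18 months or for higher under tamoxifen. These lists are therefore not read as results about the members.

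**Figure D3:**
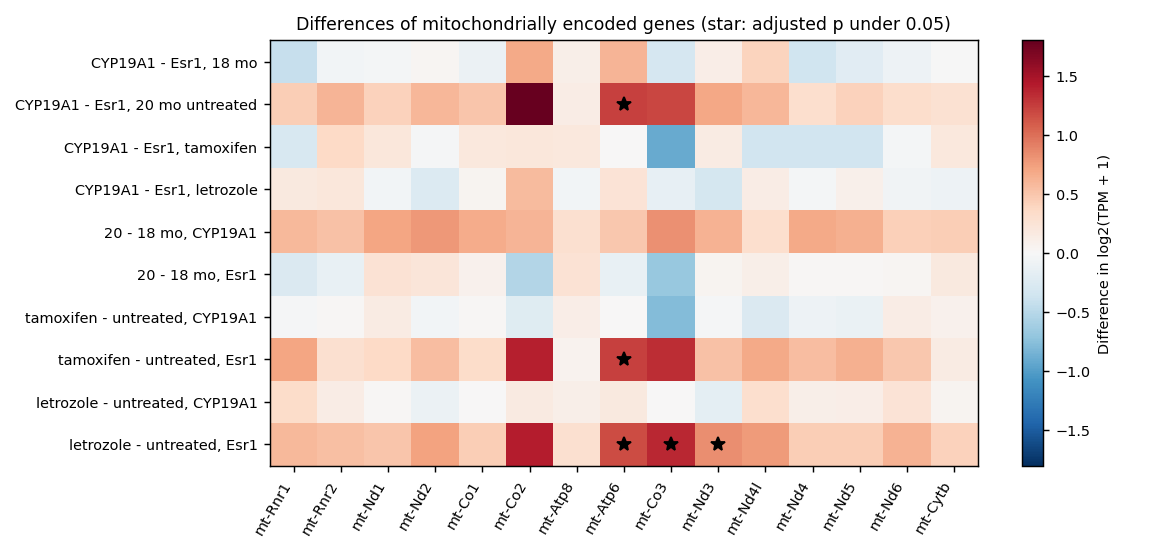
Differences in log2(TPM + 1) of the 15 mitochondrial rRNAs and mRNAs (columns, in genome order) in 10 comparisons (rows), coloured from blue (lower in the first-named group) to red (higher), with stars where the limma adjusted p was under 0.05. Stars mark mt-Atp6 in 3 rows, and mt-Co3 and mt-Nd3 in the row of letrozole in the Esr1 line; the row of age in the CYP19A1 line is positive throughout without a star.

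With age in the CYP19A1 line, that is 20 against 18 months, no member was called, although 9.45% of all genes were, 3.01% higher (581 genes) and 6.45% lower (1246 genes). At an unadjusted p under 0.05 limma had 9 of the 16 members, all higher at 20 months, and 29.3% of all genes in either direction. Of the 16 members, 15 had a positive difference, with a median of 0.60, while the median over all genes was -0.23. The values of 12 members did not overlap between the ages, all higher at 20 months, whereas 7.48% of all genes had such a separation in that direction. mt-Co1 had 8729, 8594 and 11732 TPM at 20 months, against 5128, 6600.4 and 6414 TPM at 18 months. Its difference was 0.67 ± 0.27, or 1.59-fold (limma, Benjamini-Hochberg adjusted p = 0.10). mt-Nd2 had the smallest p, with a difference of 0.78 ± 0.27 (limma, Benjamini-Hochberg adjusted p = 0.072). mt-Cytb had 3079, 2569 and 3710.2 TPM at 20 months and 1946, 2407 and 2496 TPM at 18 months, and mt-Nd6, the only mRNA read from the other strand, had 358, 329 and 513 TPM at 20 months and 264, 294 and 316 TPM at 18 months. Neither set overlapped, and their differences were 0.44 ± 0.26 and 0.43 ± 0.28 (limma, Benjamini-Hochberg adjusted p = 0.27 and 0.30). For mt-Rnr2 the levels were 148942, 161347 and 202450 TPM at 20 months and 101553, 123857 and 128837 TPM at 18 months, also separate.

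Whether members passed in this comparison depended on scaling. Under median-ratio scaling of the libraries 7 members were called, all higher at 20 months, namely mt-Rnr2, mt-Co1, mt-Nd1, mt-Nd2, mt-Nd3, mt-Nd4 and mt-Nd5. That scaling moved the median of all genes from -0.23 to -0.024 and turned the split of called genes to 1335 higher and 386 lower. Relative to the nuclear protein-coding TPM of each library, 6 members were called, with 915 genes higher and 998 lower. Without replicate 2 of the untreated 20-month Esr1 mice, a library outside this comparison that shares in the common estimate of the spread, 6 were called, and without replicate 1 there were 3. The muscle list moved in the same direction: its sum was 20511 to 34702 TPM at 20 months and 58.3 to 7364 TPM at 18 months. All 12 of its genes had positive differences, with a median of 4.55, and 3 were called (Mb, Myh1 and Myl1). The 3 T cell markers were called lower at 20 months, with a median of -1.19, and all 7 epithelial markers had negative differences, with a median of -0.67 and none called. All 6 brown fat markers had positive differences, with a median of 0.83, and 1 of the 6 white fat markers did, with a median of -0.45. None of either list was called. The part of the muscle, fat, T cell and epithelial lists in the result was not tested. With the muscle score as a covariate, the members' median difference was 0.42, that of all genes -0.36, and no member was called. That covariate leans on the muscle-poor libraries.

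In the Esr1 line, 20 against 18 months gave no called member and none at an unadjusted p under 0.05 by limma, in a comparison where 0.00517% of all genes were called. mt-Co1 had 10962, 3969 and 7226 TPM at 20 months and 5244, 6523 and 7840 TPM at 18 months. The 20-month mice included both the highest and the lowest of these values. The members' median difference was 0.044, against -0.14 over all genes. The difference between the lines in the effect of age was tested by interaction terms, of which none was called among the members and 0.00517% among all genes. Its median was 0.58 over the members and -0.055 over all genes. mt-Co3 had the largest value, 1.5 ± 0.50 (limma, Benjamini-Hochberg adjusted p = 0.45).

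Tamoxifen in the Esr1 line was accompanied by 1 called member, mt-Atp6, in a comparison that called 1.55% of all genes, 0.709% as higher. mt-Atp6 had 2384, 1761 and 1519.7 TPM with tamoxifen, against 627, 534 and 1462 TPM without. The groups did not overlap, but the lowest treated and the highest untreated mouse were close. The difference was 1.23 ± 0.29, or 2.35-fold (limma, Benjamini-Hochberg adjusted p = 0.040). The call was lost when any of 13 of the 24 libraries was left out (limma, Benjamini-Hochberg). The adjusted p was 0.14 without untreated replicate 2, 0.13 and 0.11 without tamoxifen replicates 1 and 3, and up to 0.055 for the other 10. These were untreated replicate 1, replicate 2 at 18 months and the 3 letrozole-treated mice of the Esr1 line, and the 3 tamoxifen-treated mice, letrozole replicate 2 and untreated 20-month replicate 1 of the CYP19A1 line. mt-Co3 had 888, 577 and 738 TPM with tamoxifen, against 156, 284 and 538 TPM without, again without overlap, and a difference of 1.32 ± 0.35 (limma, Benjamini-Hochberg adjusted p = 0.059). All 16 members had positive differences, with a median of 0.54, against 0.051 over all genes. Without untreated replicate 1, 3 other members were called (mt-Nd2, mt-Nd5 and mt-Nd6), and without untreated replicate 3 there were 3 (mt-Atp6, mt-Co2 and mt-Co3). Of the 16, 3 had values that did not overlap and were higher with tamoxifen (7.38% of all genes). In this comparison all 12 muscle genes had positive differences, with a median of 1.04 and none called, 1 of 3 T cell markers (Cd3d) was called lower, and all 7 epithelial markers had negative differences, with a median of -0.48 and none called. Of 6 brown fat markers 5 had positive differences, with a median of 0.59, as did 5 of 6 white fat markers, with a median of 0.61. None of either list was called. The part of the muscle, fat, T cell and epithelial lists was not tested. With the share of cytosolic rRNA as a covariate, mt-Atp6 had a difference of 1.22 and was not called (limma, Benjamini-Hochberg adjusted p = 0.067), whereas without the 3 rRNA-rich libraries it was called at 1.60 together with mt-Co3 at 2.36. Leaving those out keeps replicate 1 as the only untreated 20-month Esr1 library, which the fit takes to vary like the other groups.

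Tamoxifen in the CYP19A1 line gave no called member (0.160% of all genes called), and 1 of 16 at an unadjusted p under 0.05 by limma, mt-Co3, against 4.38% of all genes. That gene had 439, 288 and 457 TPM with tamoxifen and 491, 628 and 939.7 TPM without. The groups did not overlap (4.88% of all genes were separate and lower), and the difference was -0.77 ± 0.35 (limma, Benjamini-Hochberg adjusted p = 1.0). mt-Atp6 had 1727, 2049 and 1852 TPM with tamoxifen, within the range of the untreated mice. The interaction of line and tamoxifen, taken as the effect in CYP19A1 mice minus that in Esr1 mice, had no called member and 0.00% called over all genes. For mt-Co3 it was -2.10 ± 0.50 and for mt-Atp6 -1.22 ± 0.41 (limma, Benjamini-Hochberg adjusted p = 0.26 and 0.35). At an unadjusted p under 0.05, limma had these 2 members of 16, and 10.5% of all genes. Without the 3 rRNA-rich libraries the interaction of mt-Co3 was called at -3.14 (limma, Benjamini-Hochberg adjusted p = 0.011), again with replicate 1 as the only untreated 20-month Esr1 library.

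Letrozole in the Esr1 line gave the most called members, 3 of 16, all higher with the drug, in a comparison that called 8.65% of all genes, 2.85% as higher. These were mt-Atp6, mt-Co3 and mt-Nd3. mt-Co3 had 694, 736 and 798 TPM with letrozole, against 156, 284 and 538 TPM without. The treated mice lay close together and above every untreated mouse, with a difference of 1.36 ± 0.35, or 2.57-fold (limma, Benjamini-Hochberg adjusted p = 0.023). mt-Nd3 had 2878, 2921 and 2793 TPM with letrozole, against 1725, 1098 and 2184 TPM without, and a difference of 0.83 ± 0.23, or 1.78-fold (limma, Benjamini-Hochberg adjusted p = 0.032). mt-Atp6 had 1671, 2171 and 1539.7 TPM with letrozole, against 627, 534 and 1462 TPM without, a difference of 1.17 ± 0.29, or 2.25-fold (limma, Benjamini-Hochberg adjusted p = 0.019). In all of these the untreated group was the more variable.

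All 16 members had positive differences with letrozole in this line, with a median of 0.61, against -0.0056 over all genes. The 6 members that did not overlap were mt-Rnr1, mt-Rnr2, mt-Atp6, mt-Co3, mt-Nd3 and mt-Nd4l (11.2% of all genes were separate and higher). mt-Rnr1 had 35654 to 38014 TPM with letrozole and 14865 to 32071 TPM without, and mt-Rnr2 155909 to 163579 TPM with and 71009 to 154019 TPM without. mt-Nd4l had 596, 627 and 611 TPM with letrozole and 509.96, 174 and 525 TPM without. Their differences were 0.59 ± 0.27, 0.54 ± 0.24 and 0.76 ± 0.35 (limma, Benjamini-Hochberg adjusted p = 0.17 for each). The calls leaned on single libraries. The share of all genes called in each fit without a library is not given here, so counts of members are not set apart from it. Without replicate 1 of the untreated mice 9 members were called, but not mt-Co3, and without replicate 2 none of the 3 was called (limma, Benjamini-Hochberg adjusted p = 0.082 for mt-Atp6, 0.065 for mt-Co3 and 0.12 for mt-Nd3). Leaving out replicate 1 or replicate 2 of the letrozole-treated mice also ended all 3 calls, and leaving out their replicate 3 ended those of mt-Co3 and mt-Nd3. With cytosolic rRNA as a covariate none was called, with differences of 1.15, 1.59 and 0.66 (limma, Benjamini-Hochberg adjusted p = 0.10, 0.063 and 0.20). Without the 3 rRNA-rich libraries, set against the remaining untreated replicate 1, mt-Atp6 (1.5) and mt-Co3 (2.24) were called and mt-Nd3 (0.73) was not. The muscle sum was 29063 to 32605 TPM with letrozole and 6297 to 20851 TPM without, and 4 of the 7 epithelial markers were called lower with the drug, among them Epcam at -1.94 ± 0.46 (limma, Benjamini-Hochberg adjusted p = 0.016). The 3 T cell markers were also called lower, with a median of -1.07, and 1 of 6 brown fat markers, Ppargc1a, was called higher (0.71 ± 0.21, limma, Benjamini-Hochberg adjusted p = 0.041). The brown fat list as a whole did not rise: 2 of its 6 differences were positive and the median was -0.43. All 6 white fat markers had positive differences, with a median of 1.21 and none called. The part of these lists in the result was not tested. With the muscle score as a covariate the same 3 members were called, but that covariate leans on the muscle-poor libraries.

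Letrozole in the CYP19A1 line gave no called member (0.0207% of all genes called), and none at an unadjusted p under 0.05 by limma. mt-Co1 had 9774, 9195 and 9852 TPM with letrozole, within the 8594 to 11732 TPM of the untreated mice. The members' median difference was 0.12, against -0.10 over all genes. The interaction of line and letrozole had a negative difference for all 16 members, with a median of -0.43 against -0.10 over all genes. None was called (0.00% of all genes), and 4 of the 16 members passed an unadjusted p of 0.05, against 11.8% of all genes. The lowest of these p-values was that of mt-Nd3, at -1.0 ± 0.33 (limma, Benjamini-Hochberg adjusted p = 0.32).

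Between the drugs, tamoxifen against letrozole called no member in the CYP19A1 line (0.248% of all genes called) or in the Esr1 line (0.129%). At an unadjusted p under 0.05 limma had 1 member of 16, mt-Co3 in the CYP19A1 line, against 10.1% of all genes there, and none in the Esr1 line, against 7.63%. There it had 439, 288 and 457 TPM with tamoxifen and 1085, 567 and 481 TPM with letrozole. The drugs did not overlap (2.75% of all genes were separate and lower), with a difference of -0.78 ± 0.35 (limma, Benjamini-Hochberg adjusted p = 0.48). In that line mt-Nd4l was also separate and lower with tamoxifen, at -0.56 ± 0.35. In the Esr1 line mt-Nd3 was, at -0.31 ± 0.23, and the share of all genes there is not given here. The doses differ, so these are values side by side.

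The calls of mt-Atp6 changed when its pseudogene was counted with it. Of the summed TPM of mt-Atp6 and Gm10925, mt-Atp6 made up 31.3% to 36.0% in the group means of the CYP19A1 line. In the Esr1 line the share was 34.1% ± 3.15 with tamoxifen, 27.5% ± 4.81 with letrozole, 18.4% ± 10.6 at 20 months untreated and 20.5% ± 6.43 at 18 months (SD, n = 3 each). Gm10925 itself had 3497, 3748 and 4885 TPM in the untreated 20-month CYP19A1 mice, against 7438, 2390 and 3576 TPM in the untreated 20-month Esr1 mice. The lowest share of any library, 7.78%, was in replicate 1 of the untreated 20-month Esr1 mice, which also had the highest Gm10925 level of the 24. When both were summed, the difference between the lines averaged over conditions was -0.00089 and that at 20 months untreated 0.26. For tamoxifen in the Esr1 line the sum gave 0.15 and for letrozole 0.41, and none of the 4 was called (limma, Benjamini-Hochberg adjusted p from 0.38 to 1.0). The calls of mt-Atp6 thus did not hold for the sum of both. mt-Co3 and mt-Nd3 were still called for letrozole in the Esr1 line in that fit, where no nuclear copy was summed with either gene. Replicate 1 of the untreated 20-month Esr1 mice also had the lowest mt-Co3 of all libraries (156 TPM), beside some of the highest levels of mt-Co1, mt-Cytb and mt-Atp8 (10962, 4056 and 4095 TPM).

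**Figure D4:**
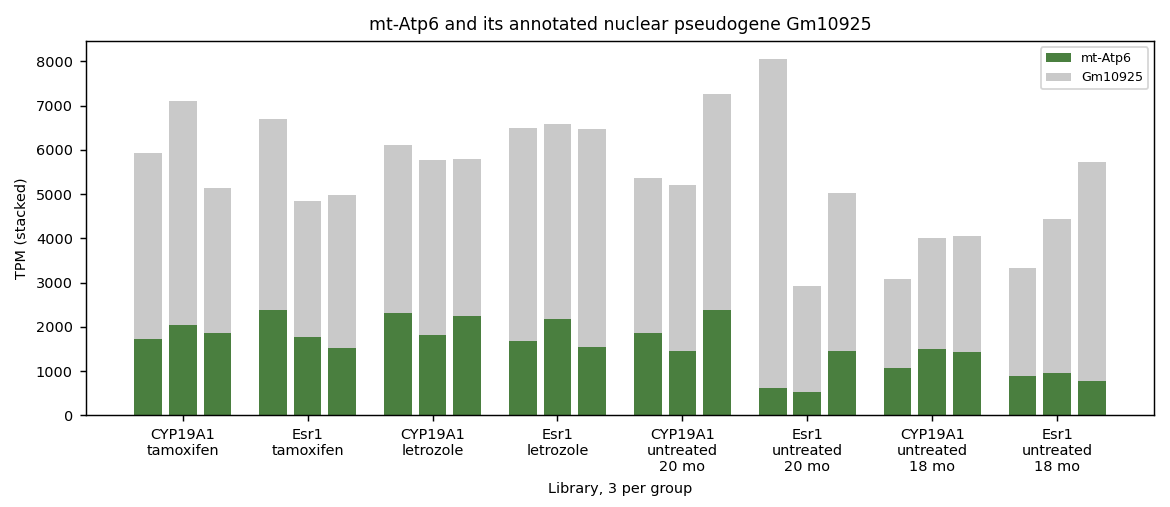
Level of mt-Atp6 (green) and of its annotated nuclear pseudogene Gm10925 (grey), stacked, in TPM, in each of the 24 libraries, 3 per group. The green part is smallest in 2 of the untreated 20-month Esr1 libraries (534 and 627 TPM) and in the 18-month Esr1 libraries (782 to 949.9 TPM), while the stacked height there ranges from 2924 to 8065 TPM.

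Ratios between members do not depend on the scaling of a library. Of these, 4 were tested by permuting libraries within condition or line, in 4 comparisons each, with Benjamini-Hochberg adjustment over the 16 tests. The ratio of mt-Rnr2 to mt-Rnr1 was higher in the CYP19A1 line, at 5.02 ± 0.617, against 4.08 ± 0.640 in the Esr1 line (SD, n = 12 each). The lines overlapped, with 3.89 to 6.11 in CYP19A1 libraries and 3.17 to 4.92 in Esr1 libraries. The log2 difference was 0.30 (two-sided permutation test with 100000 resamples, p = 0.0030, adjusted p = 0.047). By condition it was 0.65 under tamoxifen, 0.027 under letrozole, 0.18 at 20 months untreated and 0.36 at 18 months. Under tamoxifen the CYP19A1 mice had ratios of 5.29, 5.48 and 4.87, against 3.17, 3.47 and 3.35 in Esr1 mice, the widest separation of the 4 conditions.

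The ratio of mt-Nd4l to mt-Nd4, complex I genes whose reading frames overlap on the genome, was also higher in the CYP19A1 line. It was 0.384 ± 0.0728 in CYP19A1 libraries and 0.310 ± 0.0511 in Esr1 libraries (SD, n = 12 each), a log2 difference of 0.31 (two-sided permutation test with 100000 resamples, p = 0.0059, adjusted p = 0.047). At 18 months it was 0.509, 0.473 and 0.408 in CYP19A1 mice and 0.208, 0.320 and 0.299 in Esr1 mice, which did not overlap. The log2 difference was 0.76 there, 0.30 at 20 months untreated, 0.17 under letrozole and 0.0030 under tamoxifen. With Gm10222 added to mt-Nd4l the difference was 0.23 (two-sided permutation test with 100000 resamples, adjusted p = 0.008). Both ratio results were marginal. Leaving out single libraries ended the call of mt-Rnr2 over mt-Rnr1 in 13 of 24 cases and that of mt-Nd4l over mt-Nd4 in 18 of 24, with adjusted p up to 0.065 and 0.081 by the permutation test and values between 0.26 and 0.35. For mt-Rnr2 over mt-Rnr1 these were, in the CYP19A1 line, tamoxifen replicates 1 and 3, letrozole replicate 2, untreated 20-month replicates 2 and 3 and all 3 mice at 18 months. Those of the Esr1 line were tamoxifen replicate 2, letrozole replicate 3, untreated 20-month replicates 1 and 2 and 18-month replicate 1. For mt-Nd4l over mt-Nd4 the call stood without CYP19A1 tamoxifen replicate 2 or letrozole replicate 1, and without Esr1 tamoxifen replicates 1 or 3, letrozole replicate 2 or untreated 20-month replicate 3, and was lost without any of the other 18.

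The remaining ratios did not pass. mt-Atp8 over mt-Atp6, which share part of their sequence on 1 mRNA, was 1.52 ± 0.209 in the CYP19A1 line and 2.29 ± 1.45 in the Esr1 line (SD, n = 12 each; two-sided permutation test with 100000 resamples, adjusted p = 0.074). Its highest value, 6.53, came from replicate 1 of the untreated 20-month Esr1 mice. mt-Nd6 over mt-Cytb, genes on opposite strands, was 0.138, 0.132 and 0.167 in CYP19A1 mice with letrozole, against 0.116, 0.128 and 0.138 in untreated CYP19A1 mice. In the Esr1 line it was 0.143, 0.140 and 0.147 with letrozole, against 0.132, 0.118 and 0.120 untreated. The log2 difference over both lines was 0.20 (exact permutation test, p = 0.010, adjusted p = 0.053), and for tamoxifen it was 0.19 (exact permutation test, p = 0.040, adjusted p = 0.13). For age the adjusted p was 0.327 or more in each of the 4 ratios (exact permutation test).

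Nuclear genes that work with the mitochondrial ones were read from lists. Of 18 nuclear respiratory chain genes, 5 were higher in the CYP19A1 line averaged over conditions, among them the complex IV subunit Cox5a (0.45 ± 0.10, limma, Benjamini-Hochberg adjusted p = 0.0079) and the complex III subunit Uqcrfs1 (0.36 ± 0.093, 0.020 by the same test). Of all genes, 3.96% were higher in that comparison. None of the 18 was lower, all 18 differences were positive, and their median was 0.27. At 20 months untreated 4 were higher in the CYP19A1 line, against 2.12% of all genes. Among them were Cox5a, Uqcrfs1 and the complex I subunit Ndufv1, and the median over the 18 was 0.61. With letrozole in the Esr1 line only Cox5a was higher (0.73 ± 0.21, limma, Benjamini-Hochberg adjusted p = 0.035) and the median was 0.54. There 8.65% of all genes were called, 2.85% as higher, so a single gene of 18 is not set apart from that share. With age in the CYP19A1 line none was called and the median was 0.43. Of 15 factors that copy and transcribe mitochondrial DNA, 1 was called between the lines, Mgme1, a nuclease of mitochondrial DNA replication, at -0.32 ± 0.10 (limma, Benjamini-Hochberg adjusted p = 0.048), close to the 7.27% of all genes called there.

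Of 22 genes for mitochondrial RNA processing and stability that were tested, 1 was called, the pseudouridine synthase Pus1, lower at 20 than at 18 months in the CYP19A1 line (-0.58 ± 0.18, limma, Benjamini-Hochberg adjusted p = 0.045). Of 21 mitochondrial ribosomal protein genes, Mrpl3 was higher in the CYP19A1 line averaged over conditions (0.28 ± 0.085, limma, Benjamini-Hochberg adjusted p = 0.049) and Mrps35 was lower at 20 than at 18 months in that line (-0.44 ± 0.13, 0.039 by the same test). With 6.45% of all genes lower with age and 3.96% higher between the lines, 1 gene of such a list is close to the background share. With age in the CYP19A1 line the median difference was -0.15 for the transcription and replication list, -0.18 for the processing list and -0.20 for the ribosomal proteins, close to the -0.23 of all genes, while that of the mitochondrially encoded genes was 0.60.

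Across the libraries, mt-Co1 and mt-Rnr2, the only members correlated with lists, followed the nuclear respiratory chain genes. mt-Co1 and the mean log2(TPM + 1) of the 18 nuclear genes had a Pearson r of 0.88 and a Spearman rho of 0.86 over 24 libraries (permutation tests with 100000 resamples, adjusted p = 2e-05 and 1.33e-05 over 4 relations, the raw p of 1e-05 being the smallest they can give). For mt-Rnr2 r was 0.89 and rho 0.87, with the same p-values. Without the 2 libraries farthest from the median of the list, r was 0.78 for mt-Co1 and 0.82 for mt-Rnr2. Taken as deviations from group means, r was 0.84 and 0.76 (permutation test, adjusted p = 4e-05 for both). Permutations here and for the muscle list ran over all 24 libraries without regard to group. All these values share the scaling, the composition and the tissue makeup of their library, and the part of these was not tested.

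Pearson coefficients with the skeletal muscle list depended on the 2 muscle-poor libraries. mt-Co1 had an r of 0.64 (permutation p = 0.0034, adjusted p = 0.0045) and a rho of 0.84 (p = 1e-05, adjusted p = 1.33e-05), and r was 0.89 without the 2 muscle-poor 18-month libraries. As deviations from group means, r was 0.33 (permutation test, adjusted p = 0.16) and rho 0.63 (adjusted p = 0.0016). mt-Rnr2 had an r of 0.47 (permutation p = 0.028, adjusted p = 0.028) and a rho of 0.74 (p = 2e-05, adjusted p = 2e-05), an r of 0.82 without those 2 libraries, and, as deviations from group means, an r of 0.15 (permutation test, adjusted p = 0.45) and a rho of 0.41 (adjusted p = 0.048). Replicate 3 of the 18-month CYP19A1 mice, with 58.3 TPM of muscle genes, had 6414 TPM of mt-Co1, between the 5128 and 6600.4 TPM of its group, and replicate 1 of the 18-month Esr1 mice, with 216 TPM, had 5244 TPM, the lowest of its group. The brown fat genes summed to 10.8 to 420.4 TPM.

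**Figure D5:**
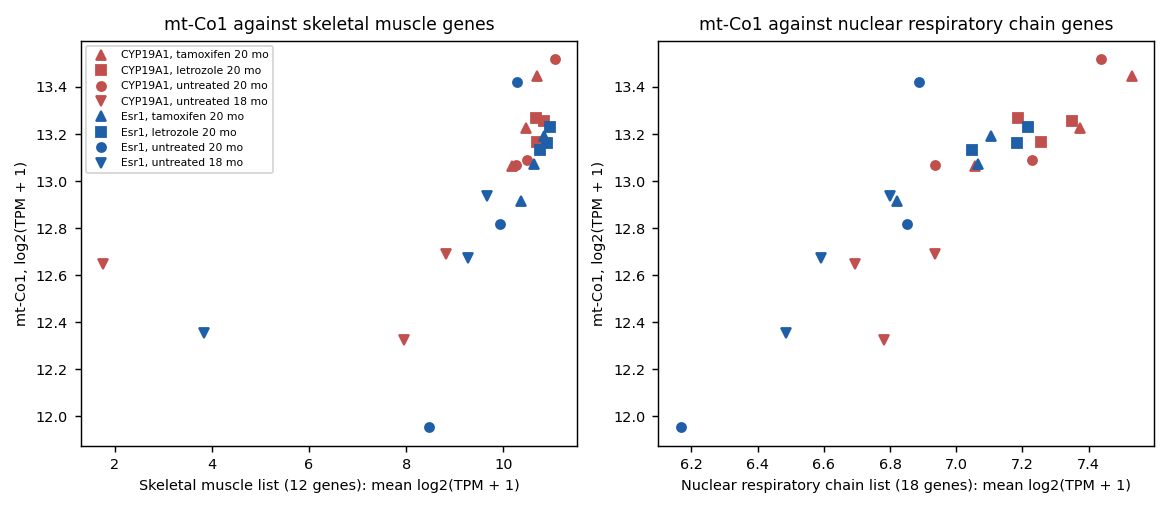
mt-Co1 (log2(TPM + 1)) against the mean log2(TPM + 1) of 12 skeletal muscle genes (left) and of 18 nuclear respiratory chain genes (right) in the 24 libraries, with a colour for each line and a symbol for each treatment and age. On the left the 2 muscle-poor 18-month libraries lie far from the others, where r was 0.64 with them and 0.89 without. On the right the points follow a common slope, where r was 0.88.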

How the data were processed

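RNA of 24 mammary glands was sequenced, and the authors deposited 1 matrix of TPM for 55487 gene models. The submitters' processing notes name RSEM 1.3.1, STAR 2.7.9a, Trim Galore 0.6.5, FastQC 0.11.9 and the build mm10, without roles or annotation. Per the labels' protocols, libraries were stranded, rRNA-depleted and random primed from total RNA. The TPM values keep no depth, so no counting interval is given, and reads that match both mitochondrial and nuclear copies were divided in a way not given in the sources used here. No column belonged to another sample.

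Values were taken as log2(TPM + 1), filtered to at least 1 TPM in at least 3 libraries (19325 genes, 16 of the 37 members) and tested with limma (version 3.58.1, R 4.3.3; moderated variances with a trend and robust settings) in a fit of 8 groups with 16 comparisons, with Benjamini-Hochberg adjustment over all genes tested. Fold changes on this scale understate the change of low genes. Ratios and correlations were tested by permutation with scipy 1.17.1 in Python 3.11.15. The test scripts were tested on simulated data. Members, lists and tests were chosen with earlier results of these data known. All mt- genes are accounted for. Values per library are given for mt-Co1, mt-Cytb, mt-Nd6, mt-Atp8, mt-Nd4l, both rRNAs and called members, and list genes are named where they were called, up to 4 a list, except for an item that is not reported here. Epcam and the other members named beside a value were named after their values were seen. Names, coordinates and synonyms come from RefSeq (GRCm38.p6). Alternatives changed the pseudocount (0.1), the filter, the scaling, the samples fitted, the covariates (muscle, cytosolic rRNA), a replicate block and each library in turn. Leaving out the rRNA-rich or the muscle-poor libraries, and summing members with nuclear copies, were added after seeing the data.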

Additional observations from a re-analysis of the deposited data

How the results depend on the processing

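Of the 16 counts of called members, 10 kept 0 under every alternative. Age in the CYP19A1 line, with 0 as deposited, had 7 with median-ratio scaling, 6 relative to nuclear protein-coding TPM, 5 with cytosolic rRNA as a covariate and 6 without the 3 rRNA-rich libraries. The lines at 20 months untreated, with 1, had 3, 4, 1 and 3 in the same order, 2 with the muscle covariate, 0 with only the compared groups in the fit and 0 with mt-Atp6 summed with Gm10925. Tamoxifen in the Esr1 line, with 1, had 2 relative to nuclear protein-coding TPM, with the muscle covariate, without the 3 rRNA-rich libraries and without the 2 muscle-poor ones, and 0 without a filter on low values, with the rRNA covariate, with only the compared groups and with the summed mt-Atp6. Letrozole in the Esr1 line, with 3, had 1 without a filter and 0 with the rRNA covariate or only the compared groups. The lines averaged over conditions, with 1, had 2 without the rRNA-rich libraries, 0 without the muscle-poor ones and 0 with the summed mt-Atp6, whose difference was then -0.00089. The interaction of line and tamoxifen had 1, lower, without the rRNA-rich libraries. The cause of these changes was not tested.

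Leaving out each library in turn gave 0 to 2 called members for the lines averaged, 0 to 5 at 20 months untreated, 0 to 6 for age in the CYP19A1 line, 0 to 3 for tamoxifen and 0 to 9 for letrozole in the Esr1 line. The share of all genes called in these fits is not given here. The lines averaged had 2 without replicate 3 of the untreated 20-month Esr1 mice. At 20 months untreated, and for tamoxifen, 2 were called without replicate 1 of the letrozole-treated CYP19A1 mice, a group outside both comparisons, and 2 at 20 months untreated also without replicate 3 of that group. Ratios between lines ran from 0.26 to 0.34 for mt-Rnr2 over mt-Rnr1, 0.26 to 0.35 for mt-Nd4l over mt-Nd4 and -0.53 to -0.30 for mt-Atp8 over mt-Atp6, which was called without replicate 3 of the untreated 20-month or replicate 2 of the letrozole-treated Esr1 mice. Pearson correlations with muscle of 0.64 and 0.47 were 0.33 and 0.15 as deviations from group means and no longer passed, whereas the rank correlations did.

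Replicate numbers did not pair the samples: deviations of same-numbered libraries had a median r of -0.0027 over 84 pairs, with 19 over 0.1, and 11 of 24 libraries correlated best with their own number. With the number as a replicate block no count of called members changed, and the ratios of 0.30 and 0.31 between the lines had an adjusted p of 0.12 each (permutation test). Scaling also moved the counts over all genes and the split of their directions: tamoxifen in the Esr1 line called 137 higher and 162 lower as deposited, 771 and 1110 with median-ratio scaling and 626 and 480 relative to nuclear protein-coding TPM; at 20 months untreated the lines had 409 and 610, 1315 and 1539, and 1139 and 921; letrozole in the Esr1 line had 550 and 1122, 1822 and 2289, and 1165 and 1797.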
